A study of Homo sapiens with 16 samples.

Results

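CDH1, KRT5, KRT14, KRT18, EPPK1 and PVRL4 encode epithelial adhesion and cytoskeletal proteins: E-cadherin, 3 keratins, the keratin-binding protein epiplakin and nectin-4. These 6 genes, of the 8808 in the authors' deposited table of CPM (read counts scaled to library size), were picked by name after their values in these libraries were known. They were followed through 12 RNA-seq libraries of U2OS cells, an established human osteosarcoma line, in 6 groups of 2 libraries each. Small interfering RNAs (siRNAs) lowered a subunit of the NuA4/TIP60 acetyltransferase complex: MRG15 (gene MORF4L1), MRGX (MORF4L2), MRGBP, BRD8 or TIP60 (KAT5). The control siRNA was against luciferase (siLuc). Dharmacon pools were used for 4 of the targets, and BRD8 was targeted with a single Sigma catalogue siRNA. All 6 groups shared the cell line and the normal growth conditions of the labels, and polyadenylated RNA was sequenced. Whether both libraries of a group stem from distinct cultures is not stated in the labels. The p-values therefore rest on the spread between these libraries, which may be technical.

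E-cadherin, the CDH1 product, joins neighbouring epithelial cells at adherens junctions by binding E-cadherin on the next cell, and its tail is held by catenins. Nectin-4, the PVRL4 product, is an immunoglobulin-like adhesion protein of the same junctions. Keratins are built as pairs of a type I and a type II chain: the type II chain KRT5 pairs with the type I chain KRT14 in the basal layer of stratified epithelia, and KRT18, also type I, pairs with KRT8 in simple epithelia. Epiplakin, the EPPK1 product, is a plakin that binds keratin filaments. MRG15 and MRGX are close relatives with chromatin-binding roles. Like MRGBP and BRD8 they are subunits of the acetyltransferase complex, and TIP60 is its catalytic subunit.

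The 2 members for which RefSeq promoter windows of build GRCh38.p14 were at hand are shown to set their upstream sequence beside the values. Each window runs from 250 bases before to 50 bases after the annotated gene start, and the genes lie on the minus strand at chr12:52520345-52520644 (KRT5) and chr1:161089509-161089808 (PVRL4, listed as NECTIN4). Capitals mark the E-box letters CAGGTG or CACCTG and the GC box letters GGGCGG or CCGCCC, searched on both strands. The submitters' notes name build hg19 for the files, and these windows were used for sequence only.
KRT5: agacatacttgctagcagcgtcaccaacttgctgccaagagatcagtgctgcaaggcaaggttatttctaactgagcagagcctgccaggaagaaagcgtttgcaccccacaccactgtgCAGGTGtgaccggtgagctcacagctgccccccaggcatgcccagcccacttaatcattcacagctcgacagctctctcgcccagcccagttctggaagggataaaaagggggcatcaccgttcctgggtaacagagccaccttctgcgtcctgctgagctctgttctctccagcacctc
PVRL4: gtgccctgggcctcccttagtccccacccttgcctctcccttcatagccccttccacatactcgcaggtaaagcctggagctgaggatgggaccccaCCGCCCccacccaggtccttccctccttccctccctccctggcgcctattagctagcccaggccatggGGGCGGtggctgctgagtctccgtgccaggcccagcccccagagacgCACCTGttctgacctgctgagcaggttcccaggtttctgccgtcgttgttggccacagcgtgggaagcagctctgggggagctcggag
The KRT5 window held an E-box 130 bases before the start and no GC box. The PVRL4 window held an E-box 38 bases before the start and GC boxes 153 and 85 bases before it. An E-box of these letters was found in 20.6% of the 35116 RefSeq windows and a GC box in 45.0%. The matches are descriptions of these letters. E-boxes of this kind are known as sites of the SNAI and ZEB repressors in the CDH1 promoter. CDH1, KRT14, KRT18 and EPPK1 are named without sequence.

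Per library, the size implied by the CPM values was 57255783 to 110402095 reads, and a single member value rested on 22 to 12837 reads. Each siRNA target was lower in its own group, at 4.58% of its siLuc mean for MORF4L1, 7.40% for MORF4L2, 7.64% for MRGBP, 24.2% for BRD8 and 13.7% for KAT5. The labels call U2OS epithelial cells of an osteosarcoma. Of 4 mesenchymal markers, VIM (1350 to 3034 CPM) and FN1 (1231 to 4138 CPM) were listed, and of 12 osteoblast markers, 4 were listed: RUNX2 at 30.4 to 124 CPM, ALPL at 9.28 to 108 CPM, COL1A1 at 963 to 2334 CPM and SPP1 at 3.92 to 14.8 CPM. OVOL2 was the listed one of 6 epithelial markers, at 0.310 to 1.13 CPM. The others, among them KRT8, KRT19 and EPCAM, were not analysed here. Of 12 erythroid markers of K562, the other cell line of the study, HBA1 was listed: it had 6.74 and 0.0422 CPM in the siTIP60 libraries, against 0.0130 and 0 CPM in the siLuc libraries. Whether siTIP60 replicate 1 held material of another sample was not tested. In siTIP60 replicate 2, with HBA1 at 0.0422 CPM, CDH1 (15.2 CPM) and KRT5 (5.99 CPM) lay above both siLuc libraries as they did in replicate 1. In these bulk libraries, fewer cells that express a gene and less RNA per cell cannot be told apart.

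Differences below are on the log2(CPM + 1) scale, knockdown minus siLuc, with their standard error (SE). They come from limma's moderated test with 6 group means over all 12 libraries, and p-values were Benjamini-Hochberg adjusted over all 8808 genes of a comparison. The authors' deposited table carries the letters DE and sig in its name, and the rule that selected its genes is not stated. Its genes may have been chosen for differences in these same libraries. The adjusted p-values and the shares of all genes therefore hold for the listed genes only. The threshold was an adjusted p under 0.05. Because 1 is added before the logarithm, such a difference understates the change of the members near 1 CPM. The 5 comparisons share the siLuc libraries. Of the 30 member values against siLuc, 9 are given with no test, because an earlier account of these data named the gene for them or because they are that gene's largest change. Of the other 21, 14 passed the threshold. Most genes named from the lists below had the smallest p of their list in limma's F-test over these same 5 knockdowns. They are mostly shown where they changed most. Their p-values therefore describe these libraries and are not tests.

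Counted by knockdown, including the values that chose the genes, 5 of the 6 genes passed in siMRG15, where 69.3% of all genes passed. Of these, 1 was higher and 4 were lower, beside 33.5% of all genes higher and 35.8% lower. In siMRGX 5 passed, against 68.2% of all genes, with 2 higher and 3 lower beside 28.2% and 40%. In siMRGBP 5 passed, against 65% of all genes, with 4 higher and 1 lower beside 32.1% and 32.9%. In siBRD8 3 passed, against 54.2% of all genes, with 3 higher and 0 lower beside 28.3% and 25.9%. In siTIP60 5 passed, against 78.8% of all genes, with 5 higher and 0 lower beside 41.1% and 37.7%. No result about these genes as a list is read from these counts. The members' median difference was -0.44 in siMRG15, -0.12 in siMRGX, 0.55 in siMRGBP, 0.31 in siBRD8 and 0.62 in siTIP60, beside -0.03, -0.10, -0.02, 0.01 and 0.05 over all genes in the same order of knockdowns. Median-of-ratios factors shifted the median of all genes in siMRGX by 0.11 and turned its split of calls to 3120 higher and 2886 lower, beside 2488 higher and 3520 lower in the deposited CPM and 2938 higher and 3056 lower with TMM factors.

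Between pairs of knockdowns, 49 of 60 member values over the 10 pairs passed. This count includes the libraries that chose the genes, and nothing is read from it; the share of all genes that passed stands in brackets. From siMRG15, 4 of the 6 genes differed to siMRGX (74.5% of all genes), 4 to siMRGBP (76%), 5 to siBRD8 (67.9%) and 6 to siTIP60 (82.2%). From siMRGX, 5 differed to siMRGBP (71.1%), 6 to siBRD8 (64.2%) and 4 to siTIP60 (83%). From siMRGBP, 4 differed to siBRD8 (61.9%) and 6 to siTIP60 (74.4%), and 5 differed between siBRD8 and siTIP60 (76%).

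**Figure D1:**
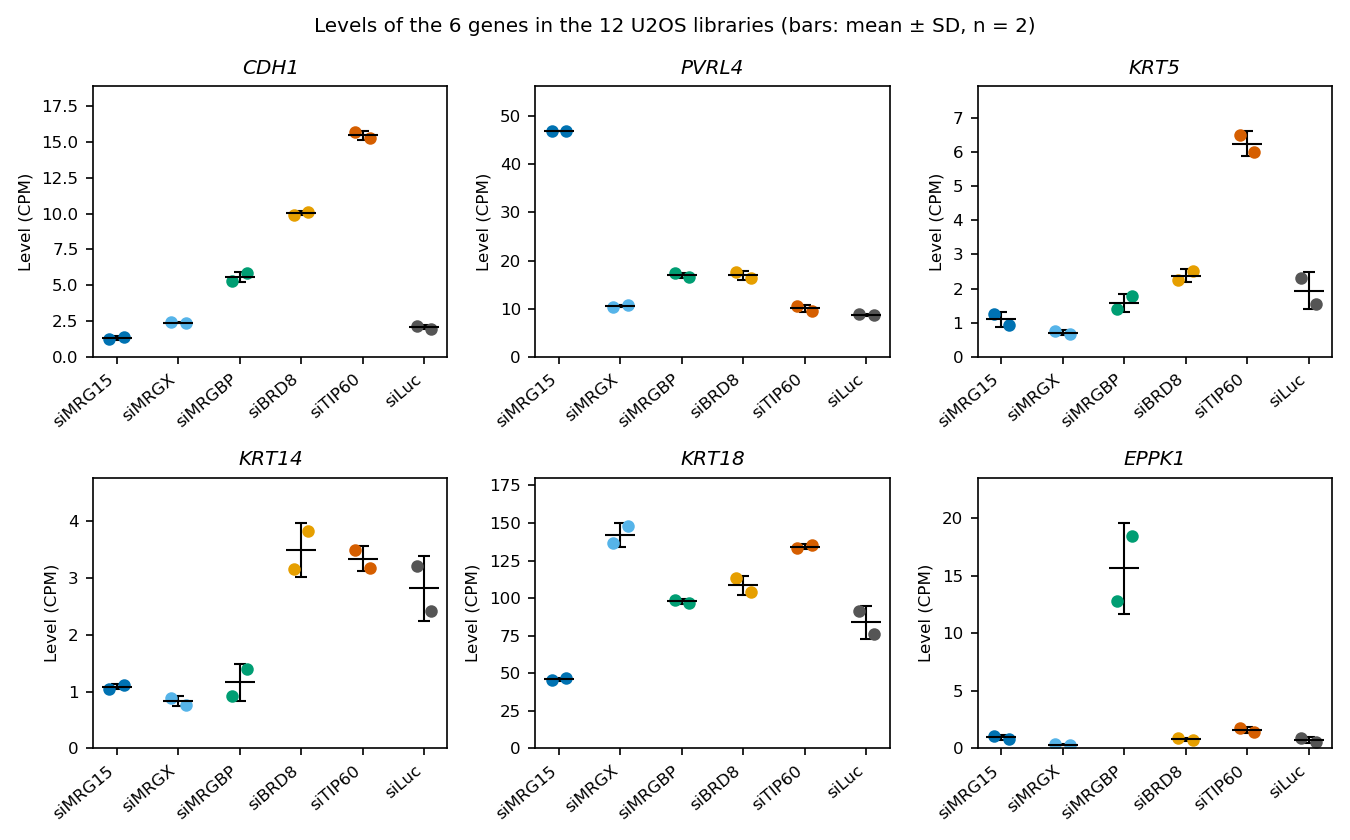
Level in CPM (linear axis from 0) of the 6 genes, 1 panel per gene, in the knockdown groups and siLuc; points are libraries and black bars the group mean ± SD (n = 2). The highest group was siTIP60 for CDH1 (15.4 CPM) and KRT5 (6.24 CPM), siMRG15 for PVRL4 (46.8 CPM) and siMRGBP for EPPK1 (15.7 CPM).

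CDH1 stood well above siLuc in siTIP60, siBRD8 and siMRGBP, as the plot of levels shows, and below it in siMRG15. CDH1 had 15.7 and 15.2 CPM in siTIP60, 9.91 and 10.1 CPM in siBRD8, 5.31 and 5.84 CPM in siMRGBP, 2.41 and 2.38 CPM in siMRGX and 1.25 and 1.40 CPM in siMRG15, against 2.17 and 1.97 CPM in siLuc. The siTIP60, siBRD8, siMRGBP and siMRGX libraries all lay above both siLuc libraries, and the siMRG15 libraries lay below them. The siBRD8 mean was 4.83-fold the siLuc mean, a difference of 1.84 ± 0.08 (SE; limma, adjusted p = 6.68e-09). The siMRGBP mean was 2.69-fold the siLuc mean, a difference of 1.10 ± 0.08 (SE; limma, adjusted p = 1.60e-07). The siTIP60 mean of 15.4 ± 0.298 CPM (SD, n = 2) was 7.45-fold the siLuc mean of 2.07 ± 0.143 CPM (SD, n = 2), a difference of 2.42 ± 0.08, and in siMRG15 CDH1 differed by -0.40 ± 0.08. Both of these are descriptions. In siMRGX CDH1 did not pass, with a difference of 0.14 ± 0.08 (SE; limma, adjusted p = 0.132). It passed there with TMM factors (0.23, adjusted p = 0.0197) and with median-of-ratios factors (0.26, adjusted p = 0.00853).

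Ordered by level, CDH1 ran siTIP60, siBRD8, siMRGBP, siMRGX, siLuc, siMRG15. The steps siBRD8 to siMRGBP (limma, adjusted p = 5.26e-06) and siMRGBP to siMRGX (3.64e-07) each exceeded the spread, and the place of siTIP60 and siMRG15 in the order is a description. In the authors' deposited table of transcript marks, whose 0 and 1 values are not explained in the sources used here, CDH1 had 6 transcripts. Of these, 4 were marked up in siTIP60 against siLuc, 3 in siBRD8 and 3 in siMRGBP. Of all 25895 transcripts, 5203, 1396 and 2586 were marked up in these comparisons. The authors' deposited table also marked 1 CDH1 transcript down in siMRGX, where the gene's CPM was not lower than in siLuc. Of all transcripts, 3652 were marked down there, and 0 CDH1 transcripts were marked down in siMRG15.

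PVRL4 was above siLuc in every knockdown, with its highest level in siMRG15, where the other adhesion gene, CDH1, was below siLuc. PVRL4 had 46.8 and 46.8 CPM in siMRG15, 10.3 and 10.7 CPM in siMRGX, 17.3 and 16.6 CPM in siMRGBP, 17.6 and 16.3 CPM in siBRD8 and 10.6 and 9.57 CPM in siTIP60, against 8.89 and 8.63 CPM in siLuc. No knockdown library overlapped the siLuc libraries. The siMRG15 mean of 46.8 CPM was 5.34-fold the siLuc mean of 8.76 ± 0.181 CPM (SD, n = 2), a difference of 2.29 ± 0.07 that is given as a description. In siMRGBP the difference was 0.88 ± 0.07 (SE; limma, adjusted p = 3.28e-07), and in siBRD8 it was 0.88 ± 0.07 (SE; limma, adjusted p = 5.59e-07). Ordered by level, PVRL4 ran siMRG15, siMRGBP, siBRD8, siMRGX, siTIP60, siLuc. The siMRGBP and siBRD8 groups did not differ beyond their spread (adjusted p = 0.985), nor did siMRGX and siTIP60 (0.480), while siBRD8 stood above siMRGX (5.30e-06).

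PVRL4 rose in siMRGX by 0.24 ± 0.07 (SE; limma, adjusted p = 0.00977) and in siTIP60 by 0.18 ± 0.07 (SE; limma, adjusted p = 0.0316). The siMRGX call was lost without siMRGX replicate 2 (adjusted p = 0.0637). The siTIP60 call was lost without siTIP60 replicate 1 (0.242), without siLuc replicate 2 (0.0992), with TMM factors (0.165), with median-of-ratios factors (0.0860) and with only the 2 groups compared (0.103). The authors' deposited table marked both PVRL4 transcripts up in siMRG15 and in siMRGBP against siLuc. It marked 0 of the 2 up in siMRGX, siBRD8 and siTIP60. Of all 25895 transcripts, 1889 were marked up in siMRG15 and 2586 in siMRGBP. PVRL4 was also among the 215 names of the authors' deposited list of genes up with BRD8 and MRGBP, and none of the 6 genes was among the 218 names of its counterpart for genes down.

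KRT5 and KRT14, the chains that pair in basal cells, were both below siLuc in siMRGX, and in siTIP60 KRT5 was above siLuc while KRT14 overlapped it. KRT5 had 1.26 and 0.948 CPM in siMRG15, 0.761 and 0.657 CPM in siMRGX, 1.40 and 1.77 CPM in siMRGBP, 2.24 and 2.52 CPM in siBRD8 and 6.50 and 5.99 CPM in siTIP60, against 2.32 and 1.55 CPM in siLuc. KRT14 had 1.05 and 1.12 CPM in siMRG15, 0.890 and 0.769 CPM in siMRGX, 0.926 and 1.40 CPM in siMRGBP, 3.15 and 3.83 CPM in siBRD8 and 3.50 and 3.18 CPM in siTIP60, against 3.22 and 2.42 CPM in siLuc. For KRT5 the siMRGBP and siBRD8 libraries overlapped the siLuc libraries, and for KRT14 the siBRD8 and siTIP60 libraries did.

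KRT5 fell in siMRGX by 0.77 ± 0.13 on the log2 scale (SE; limma, adjusted p = 0.000163). KRT14 fell in siMRGBP by 0.82 ± 0.13 on the log2 scale (SE; limma, adjusted p = 0.000102), where KRT5 differed by -0.17 ± 0.13 and did not pass (adjusted p = 0.254). As descriptions, KRT5 differed by 1.31 ± 0.13 in siTIP60, 3.23-fold in CPM, and by -0.47 ± 0.13 in siMRG15. Likewise, KRT14 differed by -1.05 ± 0.13 in siMRGX and by -0.86 ± 0.13 in siMRG15. KRT14 did not pass in siTIP60, at 0.19 ± 0.13 (SE; limma, adjusted p = 0.180). Neither gene passed in siBRD8, with KRT5 at 0.21 ± 0.13 (adjusted p = 0.178) and KRT14 at 0.24 ± 0.13 (adjusted p = 0.131).

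The siLuc libraries differed from each other for both basal keratins, and calls turned on them. Without siLuc replicate 1, KRT5 passed in siBRD8 (0.40, limma, adjusted p = 0.0162), and KRT14 passed in siBRD8 (0.39, adjusted p = 0.0275) and in siTIP60 (0.35, adjusted p = 0.0341). Without siLuc replicate 2, KRT5 passed in siMRGBP at -0.36 (adjusted p = 0.0237). Ordered by level, KRT5 ran siTIP60, siBRD8, siLuc, siMRGBP, siMRG15, siMRGX. The places of siTIP60 and siMRG15 in it are a description. From siBRD8 down to siMRGX, no step between neighbours passed (limma, adjusted p of 0.0511 or more), so this part of the order is not resolved. KRT14 ran siBRD8, siTIP60, siLuc, siMRGBP, siMRG15, siMRGX, where the places of siMRG15 and siMRGX are a description, and siBRD8 and siTIP60 did not differ beyond their spread (limma, adjusted p = 0.756). In the authors' deposited table, 2 of 5 KRT5 transcripts were marked up in siTIP60 against siLuc, and the 1 KRT14 transcript was marked down in siMRG15, siMRGX and siMRGBP. Of the KRT5 transcripts, 0 were marked down in siMRGX. Of all 25895 transcripts, 5203 were marked up in siTIP60, and 3359, 3652 and 1510 down in siMRG15, siMRGX and siMRGBP.

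KRT18, the simple-epithelial keratin, had opposite signs in the knockdowns of the relatives MRG15 and MRGX. KRT18 had 45.3 and 46.8 CPM in siMRG15, 137 and 148 CPM in siMRGX, 99.0 and 96.7 CPM in siMRGBP, 113 and 104 CPM in siBRD8 and 133 and 135 CPM in siTIP60, against 91.8 and 76.1 CPM in siLuc. The siMRG15 libraries lay below both siLuc libraries and all the other knockdown libraries lay above them. KRT18 rose in siMRGX by 0.76 ± 0.08 (SE; limma, adjusted p = 3.40e-06), in siTIP60 by 0.68 ± 0.08 (adjusted p = 6.11e-06) and in siBRD8 by 0.37 ± 0.08 (adjusted p = 0.00198).

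In siMRG15 KRT18 differed from siLuc by -0.85 ± 0.08, a description. The siMRG15 and siMRGX groups differed from each other by -1.60 ± 0.08, also a description, since it holds the same siMRG15 libraries. Ordered by level, KRT18 ran siMRGX, siTIP60, siBRD8, siMRGBP, siLuc, siMRG15. The siMRGX and siTIP60 groups did not differ beyond their spread (adjusted p = 0.367), nor did siBRD8 and siMRGBP (0.135), while siTIP60 stood above siBRD8 (0.00435). In siMRGBP KRT18 rose by 0.22 ± 0.08 (SE; limma, adjusted p = 0.0289), a call that was lost without siLuc replicate 2 (0.09, adjusted p = 0.299), without siMRGBP replicate 1 (0.0971) or replicate 2 (0.0568), and with only the 2 groups compared (0.129). In the authors' deposited table, 3 of 4 KRT18 transcripts were marked down in siMRG15 against siLuc. In siMRGX, siTIP60, siBRD8 and siMRGBP, 0 of the 4 were marked up. Of all 25895 transcripts, 3359 were marked down in siMRG15. KRT18 has processed pseudogenes, and KRT5 and KRT14 resemble KRT6A, KRT6B, KRT16 and KRT17, so how reads were shared among these copies is uncertain.

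EPPK1 was high in siMRGBP alone among the 6 groups. EPPK1 had 1.08 and 0.822 CPM in siMRG15, 0.359 and 0.308 CPM in siMRGX, 12.9 and 18.5 CPM in siMRGBP, 0.888 and 0.716 CPM in siBRD8 and 1.76 and 1.39 CPM in siTIP60, against 0.924 and 0.583 CPM in siLuc. The siMRG15 and siBRD8 libraries overlapped the siLuc libraries. The siMRGBP mean of 15.7 ± 3.97 CPM (SD, n = 2) was 20.8-fold the siLuc mean of 0.754 ± 0.241 CPM (SD, n = 2), a difference of 3.23 ± 0.15 that is given as a description. Below siMRGBP the order was siTIP60, siMRG15, siBRD8, siLuc, siMRGX: siTIP60 stood above siMRG15 (adjusted p = 0.0265), and siMRG15 and siBRD8 did not differ beyond their spread (0.525).

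EPPK1 rose in siTIP60 by 0.56 ± 0.15 (SE; limma, adjusted p = 0.00449) and fell in siMRGX by 0.39 ± 0.15 on the log2 scale (SE; limma, adjusted p = 0.0364). Both calls were lost with a pseudocount of 5 (adjusted p = 0.0724 in siTIP60 and 0.312 in siMRGX). The siMRGX call was also lost with median-of-ratios factors (0.0539), without siLuc replicate 1 (0.212) and without siMRGX replicate 1 (0.0861) or replicate 2 (0.133). EPPK1 did not pass in siMRG15, at 0.16 ± 0.15 (adjusted p = 0.366), or in siBRD8, at 0.04 ± 0.15 (adjusted p = 0.825). The 1 EPPK1 transcript of the authors' deposited table was marked up in siMRGBP against siLuc. That transcript was not marked up in siTIP60 or down in siMRGX. Of all 25895 transcripts, 2586 were marked up in siMRGBP. The gene holds near-identical internal repeats, and the sources used here do not state how reads that align to several of them were counted.

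The plot of differences sets the 30 values against siLuc side by side. The value farthest from 0 lay in siTIP60 for CDH1 and KRT5, in siMRG15 for PVRL4 and KRT18, in siMRGX for KRT14 and in siMRGBP for EPPK1.

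**Figure D2:**
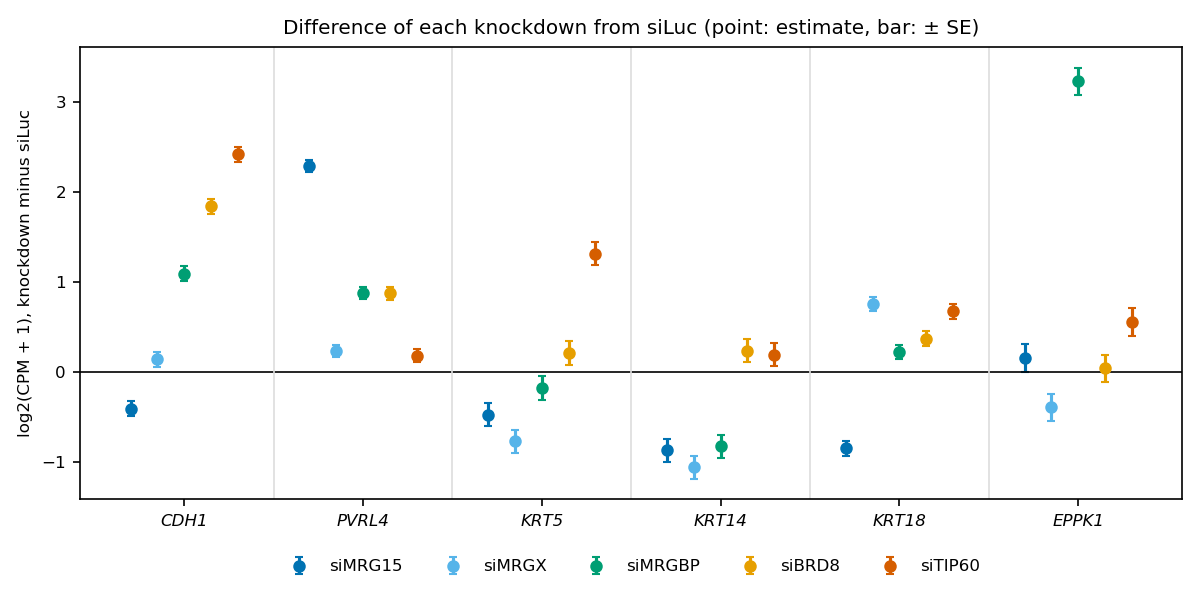
Difference in log2(CPM + 1) of each gene, knockdown minus siLuc, as points with bars for ± SE, coloured by knockdown. EPPK1 in siMRGBP (3.23), CDH1 in siTIP60 (2.42) and PVRL4 in siMRG15 (2.29) lie farthest from 0, each in a different knockdown.

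Across the 12 libraries, which share siRNA groups and a sequencing scale, CDH1 and KRT5 had a Pearson r of 0.82 in log2(CPM + 1), KRT5 and KRT14 one of 0.80, and KRT18 and PVRL4 one of -0.80. These are descriptions over 6 group levels in pairs. Among all genes, those most like CDH1 were XIRP2 (r = 0.973), RP11-879D6.1 (0.964) and RP11-794P6.6 (0.963). Those most like KRT5 were WDFY4 (0.982), RP11-352B15.1 (0.981) and TTC39B (0.980), and those most like KRT14 were GXYLT2 (0.977), EBF1 (0.973) and HAPLN1 (0.965). KRT18 was most like MARS (0.987), CTSL1 (0.974) and TRIM16L (0.970). EPPK1 was most like RP11-379B18.5 (0.991), LDB3 (0.986) and EGF (0.977), and PVRL4 was most like ZNF630 (0.987), RP3-337H4.8 (0.978) and INPP5D (0.970). No member was among the 3 genes most like another member.

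The other keratins of the table were mostly lower in siMRG15 and mostly higher in siTIP60. Of 12 other keratin genes, 11 passed as lower and 0 as higher in siMRG15, with KRT17 (-0.08) not passing, and 11 passed as higher and 0 as lower in siTIP60, with KRT80 (0.15) not passing. Their median difference was -0.62 in siMRG15 and 0.92 in siTIP60, beside -0.03 and 0.05 over all genes. The 3 member keratins had the same sign as these in both knockdowns, as the colour map of keratins shows, although KRT14 did not pass in siTIP60. In siMRGBP 9 of the 12 rose and 0 fell, but 5 rose and 1 fell without siLuc replicate 2, and 6 rose with only the 2 groups compared or with DESeq2 on recovered reads. In siMRGX 3 rose and 7 fell, or 3 and 5 with TMM or median-of-ratios factors, and in siBRD8 2 rose and 4 fell. The 11 higher in siTIP60 became 9 with only the 2 groups compared and 10 with TMM factors. The 11 lower in siMRG15 became 10 with a pseudocount of 5. Several of these keratins lay under 1 CPM in siMRG15, among them KRT79 (0.154 CPM, siLuc 0.371 CPM). With a mean of at least 5 CPM, 6 were tested, and 5 fell in siMRG15 and 5 rose in siTIP60. Of all genes, 33.5% were higher and 35.8% lower in siMRG15, 41.1% and 37.7% in siTIP60, and 32.1% and 32.9% in siMRGBP. The shares were 28.2% and 40% in siMRGX, and 28.3% and 25.9% in siBRD8.

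KRT6A, a keratin of stressed and wounded epithelium, had 19.0 and 20.5 CPM in siTIP60, against 1.13 and 1.23 CPM in siLuc, a difference of 3.25 ± 0.08 (SE; limma, adjusted p = 1.68e-11). KRT34, a hair keratin, averaged 61.2 CPM in siTIP60 and 9.63 CPM in siLuc (2.55 ± 0.11), and KRT15, a basal keratin, averaged 29.0 CPM in siTIP60 and 10.4 CPM in siLuc (1.40 ± 0.08). KRT75 averaged 101 CPM in siTIP60 and 31.8 CPM in siLuc (1.64 ± 0.07). These libraries did not overlap those of siLuc. The 4 keratins were chosen for small p-values in these data, so their values are descriptions. KRT6A stood at 3.25 in siTIP60 beside 1.31 for KRT5, the related type II keratin.

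**Figure D3:**
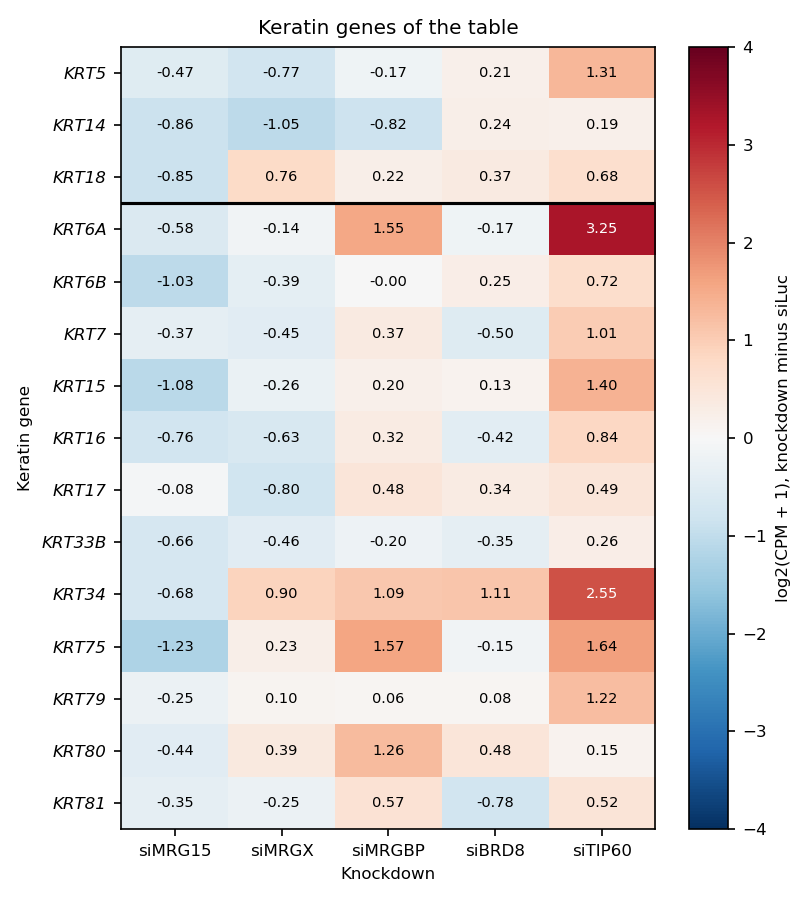
Difference in log2(CPM + 1), knockdown minus siLuc, for the 3 member keratins (above the line) and the 12 other keratins of the table, 1 column per knockdown; red is higher and blue lower than siLuc. The siMRG15 column is negative for all 15 genes and the siTIP60 column positive for all 15.

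Genes around CDH1 at the adherens junction were counted beside the shares of all genes, which were 41.1% higher and 37.7% lower in siTIP60, 32.1% and 32.9% in siMRGBP, 28.3% and 25.9% in siBRD8, 28.2% and 40% in siMRGX, and 33.5% and 35.8% in siMRG15. Of 11 other cadherins and catenins, 9 rose and 1 fell in siTIP60, 8 rose and 1 fell in siMRGBP, 4 rose and 1 fell in siBRD8, 1 rose and 4 fell in siMRGX, and 3 rose and 4 fell in siMRG15. CDH6, another classical cadherin, averaged 0.446 CPM in siMRGX and 4.36 CPM in siLuc (-1.89 ± 0.12), and CTNND2, a delta-catenin, averaged 13.4 CPM in siMRG15 and 3.36 CPM in siLuc (1.72 ± 0.10). CDH24 averaged 22.8 CPM in siTIP60 and 68.2 CPM in siLuc (-1.54 ± 0.07), opposite in sign to CDH1 there. CDH13 differed by 0.65 in siTIP60. All 4 values passed limma's threshold, in genes chosen for small p-values. The siBRD8 count of 4 higher is near the share over all genes. The 1 higher gene in siMRGX became 0 with a replicate block, with only the 2 groups compared, with DESeq2 and without siLuc replicate 2 or any 1 siMRGX, siBRD8 or siTIP60 library, 2 with TMM factors and 3 with median-of-ratios factors. The 1 lower in siTIP60 became 2 with TMM or median-of-ratios factors, with only the 2 groups compared and without either siMRGX library, and the 1 lower in siMRGBP became 2 without siMRGBP replicate 2.

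The other nectins and nectin-like genes passed mostly as lower in siMRGBP, siMRGX and siTIP60 and in both directions in siMRG15 and siBRD8. PVRL4 was above siLuc in every knockdown. Of 6, 0 rose and 6 fell in siMRGBP, 0 rose and 5 fell in siMRGX and in siTIP60, and 2 rose and 2 fell in siMRG15 and in siBRD8. Of all genes, 32.1% were higher and 32.9% lower in siMRGBP, 28.2% and 40% in siMRGX, and 41.1% and 37.7% in siTIP60. The shares were 33.5% and 35.8% in siMRG15, and 28.3% and 25.9% in siBRD8. PVRL3, nectin-3, averaged 21.9 CPM in siMRG15 and 60.7 CPM in siLuc, a difference of -1.43 ± 0.06 (SE; limma, adjusted p = 1.61e-09), in the knockdown where PVRL4 was at its highest. PVRL2, nectin-2, averaged 73.9 CPM in siTIP60 and 195 CPM in siLuc (-1.39 ± 0.07), and in siMRG15 it differed by -1.05 ± 0.07. PVRL1, nectin-1, differed by -0.68 ± 0.07 in siTIP60, and the nectin-like gene CADM3 by -2.42 in siMRGX. In siMRG15 PVRL1 (0.21 ± 0.07) and CADM4 (0.77 ± 0.12) rose, and in siBRD8 PVRL1 (0.63 ± 0.07) and CADM1 (0.49 ± 0.07) rose. The 2 higher in siMRG15 became 1 with only the 2 groups compared, and that count also moved when single libraries were left out.

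Desmosomal and hemidesmosomal genes, which anchor keratin filaments, rose in most cases in siMRGBP, siBRD8 and siTIP60, as the bars of list shares show. Among these knockdowns EPPK1 was high in siMRGBP alone. Of 16 such genes, 14 rose and 1 fell in siMRGBP, 11 rose and 2 fell in siBRD8, 11 rose and 3 fell in siTIP60, 4 rose and 6 fell in siMRGX (6 and 5 with TMM or median-of-ratios factors), and 3 rose and 6 fell in siMRG15 (6 and 6 without siLuc replicate 1, 5 and 6 with TMM factors). The 2 lower in siBRD8 became 1 without siBRD8 replicate 1 or siLuc replicate 1. The median difference was 0.74 in siMRGBP, beside -0.02 over all genes. Of all genes, 32.1% were higher and 32.9% lower in siMRGBP, 28.3% and 25.9% in siBRD8, and 41.1% and 37.7% in siTIP60. The shares were 28.2% and 40% in siMRGX, and 33.5% and 35.8% in siMRG15. DSP, desmoplakin, had 17.2 and 18.0 CPM in siMRGBP, against 2.12 and 1.86 CPM in siLuc (2.64 ± 0.11, SE; limma, adjusted p = 1.40e-09). ITGA6, the alpha-6 integrin, averaged 73.5 CPM in siMRG15 and 213 CPM in siLuc (-1.52 ± 0.06), and PKP4, of the plakophilin family, averaged 45.0 CPM in siTIP60 and 146 CPM in siLuc (-1.68 ± 0.07).

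**Figure D4:**
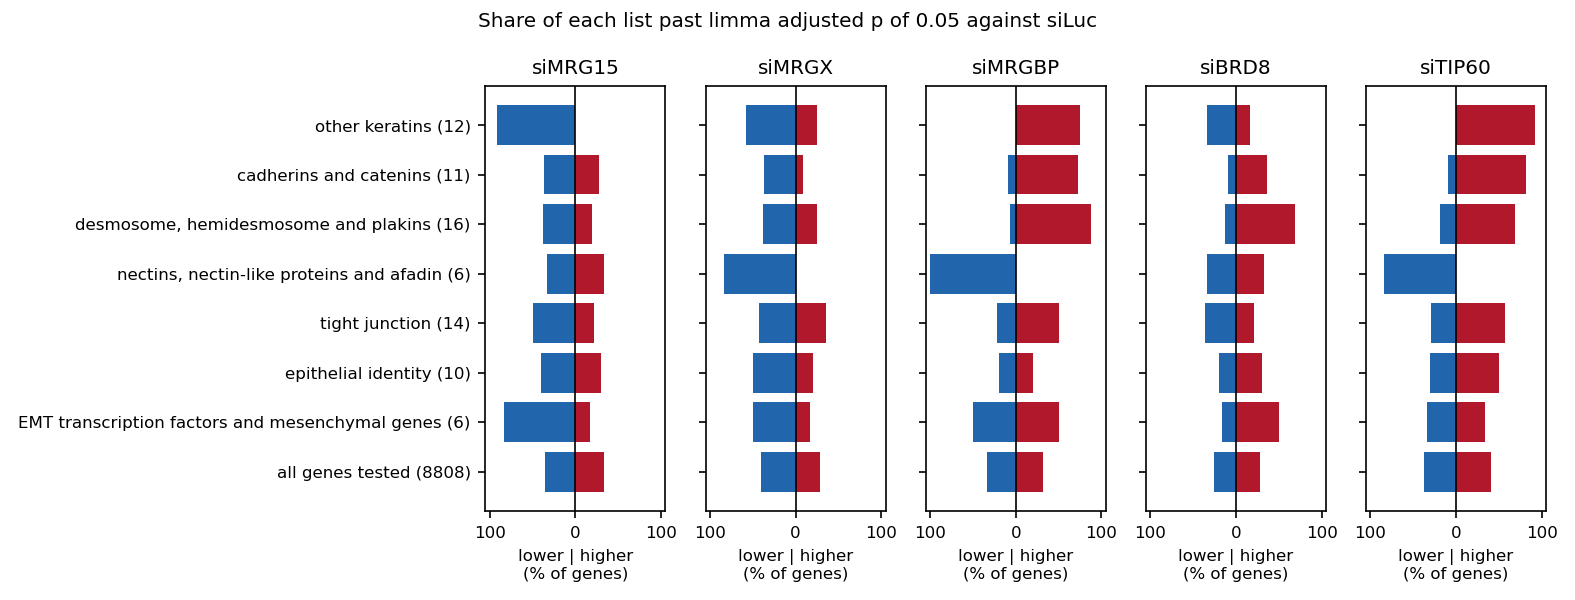
Share in percent of each list, with the number of its genes in brackets, that passed the threshold against siLuc; red bars to the right are higher, blue bars to the left lower, 1 panel per knockdown, and the lowest row is all genes tested. The keratin bar lies wholly on the lower side in siMRG15 (11 of 12) and wholly on the higher side in siTIP60 (11 of 12), and the desmosome bar reaches 14 of 16 higher in siMRGBP.

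Of 14 tight junction genes, 8 rose and 4 fell in siTIP60, 7 rose and 3 fell in siMRGBP, 3 rose and 5 fell in siBRD8 (7 and 4 without siLuc replicate 1), 5 rose and 6 fell in siMRGX, and 3 rose and 7 fell in siMRG15. Without siLuc replicate 2, 5 fell in siMRGBP and 1 rose in siMRG15, and without siMRG15 replicate 1 or with only the 2 groups compared, 1 rose there as well. With TMM factors 5 rose and 6 fell in siMRG15. Of all genes, 41.1% were higher and 37.7% lower in siTIP60, 32.1% and 32.9% in siMRGBP, and 28.3% and 25.9% in siBRD8. The shares were 28.2% and 40% in siMRGX, and 33.5% and 35.8% in siMRG15. Several of the tight junction counts lie near these shares, and nothing particular to the list is read from them. Among them CLDN12 differed by 1.93 in siMRGBP, CLDN4 by -2.02 in siMRGX, and in siTIP60 CXADR by -1.47 and JAM3 by -2.26. Of 10 epithelial identity genes, 5 rose and 3 fell in siTIP60, 2 rose and 2 fell in siMRGBP, 3 rose and 2 fell in siBRD8, 2 rose and 5 fell in siMRGX, and 3 rose and 4 fell in siMRG15. In siMRGX 1 rose with only the 2 groups compared, and the count also moved when single libraries were left out. Beside the same shares of all genes, nothing particular to the epithelial identity list is read from its counts. GRHL3, an epithelial transcription factor, averaged 8.03 CPM in siMRG15 and 1.18 CPM in siLuc (2.05 ± 0.11), MUC1 differed by -1.15 in siMRGX, EHF by 0.94 in siTIP60 and CDS1 by 0.91 in siBRD8.

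Among mesenchymal genes, both directions occurred in the knockdowns where CDH1 was high. Of 6 such genes, 2 rose and 2 fell in siTIP60, 3 rose and 1 fell in siBRD8, 3 rose and 3 fell in siMRGBP, 1 rose and 3 fell in siMRGX, and 1 rose and 5 fell in siMRG15. Of all genes, 41.1% were higher and 37.7% lower in siTIP60, 28.3% and 25.9% in siBRD8, and 32.1% and 32.9% in siMRGBP. The shares were 28.2% and 40% in siMRGX, and 33.5% and 35.8% in siMRG15. Nothing particular to the list is read from these counts. The 3 lower in siMRGX became 1 with TMM or median-of-ratios factors and with only the 2 groups compared. That count also moved when single libraries were left out. The 1 higher in siMRGX became 0 without siMRGX replicate 1 or siLuc replicate 1. The 3 higher in siMRGBP became 1 with only the 2 groups compared, and the 1 lower in siBRD8 became 2 with TMM or median-of-ratios factors. Both of these counts also moved when single libraries were left out. SNAI2, a repressor known to act on CDH1, had 45.4 and 42.8 CPM in siBRD8, against 18.6 and 19.9 CPM in siLuc (1.15 ± 0.08, SE; limma, adjusted p = 1.74e-07), and CDH1 was 4.83-fold the siLuc mean there. In siMRGBP SNAI2 differed by -0.65 ± 0.08, and in siTIP60 it did not pass, at 0.09 ± 0.08 (adjusted p = 0.328). Any part of SNAI2 in the CDH1 levels was not tested. FN1, fibronectin, averaged 4120 CPM in siTIP60 and 1622 CPM in siLuc (1.34 ± 0.10). TCF4 averaged 24.2 CPM in siTIP60 and 74.1 CPM in siLuc (-1.58 ± 0.07), and VIM, vimentin, differed by -0.73 ± 0.08 in siMRG15, where CDH1 was also below siLuc.

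Of the 4 listed osteoblast markers, ALPL and RUNX2 rose in siTIP60, where CDH1 and KRT5 were above siLuc. COL1A1 fell there and SPP1 did not pass. ALPL, the alkaline phosphatase of bone, had 103 and 108 CPM in siTIP60 and 99.8 and 77.3 CPM in siMRGBP, against 18.8 and 17.0 CPM in siLuc. These are differences of 2.50 ± 0.10 and 2.23 ± 0.10 (SE; limma, adjusted p = 2.69e-10 and 2.93e-09), and in siBRD8 ALPL differed by 0.70 ± 0.10 and in siMRG15 by -0.80 ± 0.10. RUNX2, an osteoblast transcription factor, had 124 and 118 CPM in siTIP60, against 44.5 and 45.3 CPM in siLuc (1.41 ± 0.06, SE; limma, adjusted p = 4.78e-10), and in siMRGBP it did not pass (-0.13 ± 0.06, adjusted p = 0.0850). COL1A1, a collagen chain, fell in siTIP60 by 0.41 ± 0.12 and in siMRGBP by 0.91 ± 0.12 on the log2 scale, and SPP1, osteopontin, did not pass in either (0.13 ± 0.12 and 0.01 ± 0.12). Of the 4 listed markers, 2 rose and 1 fell in siTIP60, 1 rose and 1 fell in siMRGBP, 2 rose and 0 fell in siBRD8, 2 rose and 2 fell in siMRGX, and 0 rose and 2 fell in siMRG15. Beside them stand 41.1% of all genes higher and 37.7% lower in siTIP60, 32.1% and 32.9% in siMRGBP, and 28.3% and 25.9% in siBRD8. The shares were 28.2% and 40% in siMRGX, and 33.5% and 35.8% in siMRG15. Nothing particular to the list is read from these counts. The part of these markers in the member values was not tested.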

How the data were processed

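RNA-seq values of 12 U2OS libraries were analysed, and 4 K562 chromatin immunoprecipitation samples were not analysed here. The authors deposited CPM values per gene. The submitters' processing notes name MACS2 2.0.10, Bowtie2 2.1.6, Subread 2.0.0 with featureCounts, minimap2 2.17-r941 and the build hg19, and give neither their roles nor their order. The sources used here do not state strand use or the selection of the listed genes. The authors' deposited transcript marks and gene lists hold names and 0 or 1 scores.

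Of 8813 rows, 5 repeated another and 8808 genes were tested. Values were taken as log2(CPM + 1) and fitted with limma 3.58.1 (trend, 6 group means, 6 residual degrees of freedom). No filter on low values was applied, so all 6 members were tested. All values of the 12 libraries came out as whole reads (100%, within 0.01 of a read), from the CPM steps. In every library the step was first taken from differences of neighbouring values and then refined over all values. Recovered counts served edgeR 4.0.16 and DESeq2 1.42.0 as alternatives. The listed genes held 30.4 to 38.2% of a library's reads. The limma fit was tested on simulated data.

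The members and lists were chosen with earlier results of these data known. From each list the 4 genes with the smallest moderated F-test p were named, with the comparison in which they changed most, and for each member the 3 genes with the highest correlation. For 1 gene so chosen the result is not reported here. SNAI2, PVRL2, the osteoblast markers and others are given in further comparisons as well. Alternatives were pseudocounts of 0.5 and 5, a mean of at least 5 CPM, TMM and median-of-ratios factors, a replicate block, only the 2 groups compared, edgeR, DESeq2 and leaving out each library. Promoter windows came from RefSeq for 2 of 6 members.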

Additional observations from a re-analysis of the deposited data

How the results depend on the processing

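Of 615 recomputed differences of the 6 genes against siLuc, 588 kept direction and side of the threshold, 18 lost the call, 6 gained it and 3 changed sign. Many of the 615 could not change direction. A replicate block, only the 2 groups compared and a mean of at least 5 CPM left the difference itself the same. So did leaving out a library of a group that was not compared. In these, only the p-value could move, and the count of 588 is no measure of stability. The changed signs were KRT5 in siMRGBP at 0.0153 without siLuc replicate 1 (-0.363 without siLuc replicate 2), and EPPK1 in siBRD8 at -0.0251 without siBRD8 replicate 1 and -0.0967 without siLuc replicate 2; none had passed the threshold. With a mean of at least 5 CPM, KRT5, KRT14 and EPPK1 were no longer tested, and 3 members passed in siMRG15, 2 in siMRGX, 3 in siMRGBP and 3 in siTIP60. The same setting, by leaving fewer genes to test, gave 3801 genes past the threshold in siMRG15, 3820 in siMRGX, 3652 in siMRGBP and 4206 in siTIP60, and 26 member calls over the 10 pairs of knockdowns, beside 49 without it. Leaving out 1 library at a time gave 3 to 5 members in siMRGX (3 without siMRGX replicate 2) and 3 to 5 in siBRD8 (5 without siLuc replicate 1); the cause was not tested.

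With a replicate block, 5, 5, 5, 3 and 5 members passed in siMRG15, siMRGX, siMRGBP, siBRD8 and siTIP60, as without it, and over all genes 6029, 5907, 5629, 4632 and 6869 passed. The numbers do not pair the libraries: the differences between replicates 1 and 2 correlated between groups with r of -0.47 to 0.18. Both edgeR and DESeq2 on recovered reads also gave 5, 5, 5, 3 and 5 members. KRT5 in siMRG15, given with no test, lost its call without siLuc replicate 1 or siMRG15 replicate 2. A member value rested on as few as 22 reads in a library, and with 2 libraries per group the error is shared over all groups.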
